A study of Saccharomyces cerevisiae with 9 samples.

Results

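Ergosterol is the main sterol of fungal membranes, and this report follows 31 genes for its synthesis, uptake and storage through 5 strains of the budding yeast Saccharomyces cerevisiae. They were chosen by function, with earlier results of these data known. The set holds 22 synthesis genes, 3 transcriptional regulators, 2 uptake transporters, and 4 genes for making or splitting sterol esters. The array's own gene names matched 29 of them. YEH1 and YEH2 carry only systematic names on the array, YLL012W and YLR020C, and were matched through the RefSeq gene table. All 31 passed the filter on dim genes, out of 5865 genes tested and 6256 on the array, and each was well above background on every array where its spot was used.

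The study compared strains that carry an exchanged allele with their parental types. The parents were the laboratory strain BY4716 and the vineyard-derived strain RM11-1a, with 3 arrays each that the labels number 7, 9 and 11. YAD350 is BY4742, another laboratory strain, with 1 amino acid of MKT1 replaced. YLK804 is BY4724, also a laboratory strain, with the SAL1 allele of RM11-1a, and YLK806 is RM11-1a with the BY allele of SAL1. Each of these 3 was 1 strain on 1 array. All strains grew in YNB medium with 2% glucose, leucine and lysine at 100 mg/L and uracil at 20 mg/L, with histidine at 20 mg/L added for YAD350 alone. Each array set the strain, read as Cy5, against a common Cy3 reference pooled from BY4716 and RM11-1a RNA of glucose and ethanol cultures, so a log2 ratio of 0 means a level equal to the pool's. The labels do not say whether 1 pool served all arrays. No dyes were swapped.

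Yeast builds ergosterol from acetyl-CoA. The mevalonate steps make farnesyl pyrophosphate, which also feeds haem A, ubiquinone, dolichol and protein prenylation. Farnesyl units are joined to squalene, squalene is oxidised and cyclised to lanosterol, and the late steps trim, isomerise and desaturate lanosterol to ergosterol. Several of these steps consume oxygen, and cells without oxygen import sterol instead. The zinc cluster activators Upc2 and Ecm22 bind a sterol regulatory element in many of the promoters, and surplus sterol is stored as esters in lipid droplets.

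Median spot signals were 237 to 424 for the strains and 179 to 272 for the reference, over median backgrounds of 21 to 32. Precision is limited by how few arrays there are. LYS2, deleted in laboratory strains that need lysine, checked the labels: its log2 ratio lay between -3.31 and -3.02 in BY4716, at -3.16 in YAD350 and at -3.84 in YLK804, against 0.91 to 1.00 in RM11-1a and YLK806. The labels disagree on the dye of the 3 exchange strain arrays, and reading the strain as Cy5 gave a correlation over genes with the background parent of 0.806 for YAD350, 0.878 for YLK804 and 0.886 for YLK806. The labels do not say whether a parent's 3 arrays stem from separate cultures, so the p-values rest on a spread between arrays that may be technical only. In bulk RNA a lower level in every cell and fewer cells with the transcript cannot be told apart. The probes were not checked for mismatches to RM11-1a sequence or for cross-hybridisation between related genes, and each gene had 1 probe.

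RM11-1a held more RNA of most ergosterol synthesis genes than BY4716 did, and less of the regulators UPC2 and SUT1 and of the importer AUS1. Of the 31 genes, 20 were higher in RM11-1a and 5 were lower at a Benjamini-Hochberg adjusted p under 0.05 in limma, the threshold for every call here. Across all genes 33.1% were called higher and 29.9% lower. By at least 1.5-fold, 10 of the 31 were higher, against 8.51% of all genes, and 1 was lower, against 4.72%. The arrays of the parents did not overlap for 25 of the 31, against 70.2% of all genes. The median difference, RM11-1a minus BY4716, was 0.37 log2 units over the 31 genes and 0.01 over all genes. Over the 22 synthesis genes it was 0.56, with 18 called higher, 0 called lower and all 22 differences above 0. The offset used in background correction draws ratios toward 0, so the differences of dim genes are understated.

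**Figure D1:**
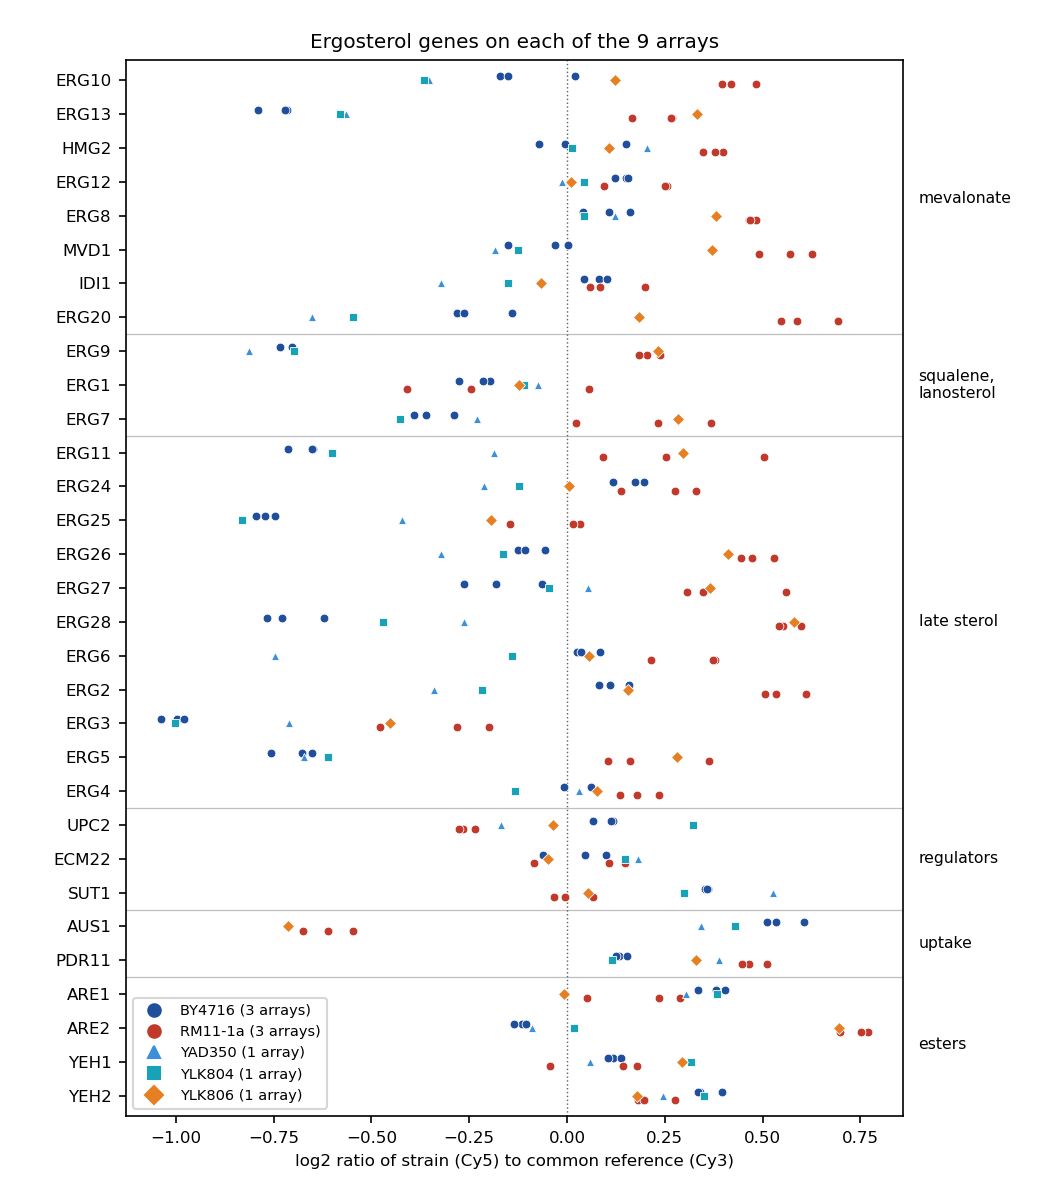
Log2 ratio of strain to common reference (x axis) for the 31 genes (rows, by role), 1 point per array. The 3 RM11-1a points lie to the right of the BY4716 points for 18 of 22 synthesis genes and for PDR11 and ARE2, and to the left for UPC2, SUT1, AUS1, ARE1 and YEH2; ERG4 has 2 BY4716 points.

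The mevalonate steps open with ERG10, the acetoacetyl-CoA thiolase, and ERG13, the synthase that makes HMG-CoA. ERG13 lay at log2 ratios of -0.72, -0.79 and -0.72 on the BY4716 arrays and 0.27, 0.27 and 0.17 on the RM11-1a arrays. The 2 sets of arrays were far apart for ERG13, and the difference of 0.98 ± 0.04 (SE) is 1.97-fold (adjusted p = 1.44e-06). ERG10 lay at 0.02, -0.17 and -0.15 in BY4716 and at 0.40, 0.48 and 0.42 in RM11-1a, a difference of 0.53 ± 0.06 (SE, adjusted p = 0.000131). Its BY4716 array 7 stood above the other BY4716 arrays but well below every RM11-1a array.

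HMG2 encodes an HMG-CoA reductase isozyme, the enzyme of the pathway's main control point. It was higher in RM11-1a by 0.35 ± 0.06 (SE, adjusted p = 0.00131), with BY4716 at -0.01, 0.15 and -0.07 and RM11-1a at 0.40, 0.38 and 0.35. The difference was smaller, 0.23, between the 2 arrays of the scan day that held both parents. HMG1, the gene of the other isozyme and not among the 31, had a larger difference of 1.43 ± 0.05 (SE, 2.69-fold, adjusted p = 5.28e-07), from -0.69, -0.64 and -0.66 in BY4716 to 0.86, 0.77 and 0.66 in RM11-1a. Both reductase genes were thus higher in the vineyard-derived strain.

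Further along, ERG8, the phosphomevalonate kinase, was higher by 0.37 ± 0.04 (SE, adjusted p = 0.000135). MVD1, the decarboxylase that forms isopentenyl pyrophosphate, was higher by 0.62 ± 0.05 (SE, adjusted p = 4.51e-05). ERG20, the farnesyl pyrophosphate synthase, lay at -0.14, -0.28 and -0.26 in BY4716 and 0.55, 0.59 and 0.69 in RM11-1a. Its difference of 0.84 ± 0.05 (SE, 1.79-fold, adjusted p = 1.12e-05) was the second largest of the 8 mevalonate genes, after ERG13. Of those 8 genes 6 were called higher and none lower. The exceptions were ERG12, the mevalonate kinase, and IDI1, the isopentenyl pyrophosphate isomerase, whose parental arrays overlapped. ERG12 differed by 0.06, with a 95% interval from -0.06 to 0.17, and IDI1 by 0.04, from -0.07 to 0.14.

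Between farnesyl pyrophosphate and lanosterol, 2 of 3 genes were higher in RM11-1a. ERG9, the squalene synthase that commits farnesyl units to sterols, lay at -0.70, -0.73 and -0.70 in BY4716 and 0.20, 0.24 and 0.18 in RM11-1a. Its arrays were among the tightest of the set, and the difference was 0.92 ± 0.03 (SE, 1.90-fold, adjusted p = 5.28e-07). ERG7, the lanosterol synthase, lay at -0.39, -0.29 and -0.36 in BY4716 against 0.02, 0.37 and 0.23 in RM11-1a, a difference of 0.56 ± 0.08 (SE, adjusted p = 0.000736). ERG1, the squalene epoxidase that terbinafine inhibits, lay at -0.28, -0.20 and -0.22 in BY4716 and at -0.41, 0.06 and -0.25 in RM11-1a. The RM11-1a arrays of ERG1 spanned both sides of the BY4716 values, and the difference of 0.03 had an interval from -0.22 to 0.28.

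Of the 11 late sterol genes 10 were called higher in RM11-1a and none lower. ERG28, a membrane scaffold that holds the sterol demethylation enzymes together, had the largest rise of the 31 genes. It lay at -0.73, -0.62 and -0.77 in BY4716 and at 0.55, 0.60 and 0.54 in RM11-1a, 1.27 ± 0.05 (SE, 2.41-fold, adjusted p = 5.28e-07) apart. The enzymes that work with it were also higher. ERG25, the methyl oxidase, was higher by 0.74 ± 0.05 (SE, adjusted p = 1.78e-05). ERG26, the decarboxylating dehydrogenase, was higher by 0.58 ± 0.04 (SE, adjusted p = 1.28e-05). ERG27, the keto reductase, was higher by 0.57 ± 0.08 (SE, adjusted p = 0.000457).

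ERG11 encodes the lanosterol demethylase that azole antifungals inhibit. Its ratios were -0.71, -0.65 and -0.65 in BY4716 and 0.09, 0.50 and 0.25 in RM11-1a, which is wide for the second strain, and the difference was 0.96 ± 0.09 (SE, 1.94-fold, adjusted p = 8.74e-05). ERG24, the reductase that acts after Erg11 and the target of morpholine fungicides, had overlapping arrays, and its difference of 0.09 had an interval from -0.04 to 0.21.

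The last modifications were all higher in RM11-1a. ERG5, the cytochrome desaturase of the side chain, was higher by 0.91 ± 0.07 (SE, adjusted p = 2.39e-05). ERG3, the ring desaturase, lay between -1.04 and -0.98 in BY4716 and at -0.20, -0.28 and -0.48 in RM11-1a, below the reference in both strains, and was higher in RM11-1a by 0.68 ± 0.07 (SE, adjusted p = 9.80e-05). ERG2, the sterol isomerase, was higher by 0.43 ± 0.04 (SE, adjusted p = 7.55e-05), from 0.11, 0.16 and 0.08 to 0.61, 0.53 and 0.51. ERG6, the sterol methyltransferase, was higher by 0.27 ± 0.05 (SE, adjusted p = 0.00253), from 0.08, 0.02 and 0.04 to 0.38, 0.21 and 0.37. ERG4, the final reductase, rests on 2 BY4716 arrays, since the spot of array 11 carried an outlier mark and was dropped. Its difference of 0.16 ± 0.05 (SE) had an adjusted p of 0.0269, which ran from 0.0205 to 0.186 over 16 alternatives and missed the threshold in 6 of them, without BY4716 array 7 (0.19), BY4716 array 9 (0.12) or RM11-1a array 7 (0.13) among them.

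The regulators ran the other way or did not pass the test. UPC2, the main sterol-responsive activator, lay at 0.12, 0.07 and 0.11 in BY4716 and at -0.27, -0.24 and -0.28 in RM11-1a. Every RM11-1a array was below every BY4716 array, with a difference of -0.36 ± 0.03 (SE, 1.28-fold lower, adjusted p = 6.85e-05). Its paralog ECM22 overlapped between the parents, at -0.06, 0.10 and 0.05 against 0.11, 0.15 and -0.08, and the difference of 0.03 had an interval from -0.13 to 0.19. SUT1, a transcription factor that promotes sterol uptake, lay at 0.35, 0.36 and 0.36 in BY4716 and at -0.01, 0.07 and -0.03 in RM11-1a, a difference of -0.35 ± 0.04 (SE, adjusted p = 0.000142). SUT2, its paralog and not among the 31, differed by -0.08, which was not called.

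AUS1 and PDR11, the related ATP-binding cassette transporters that import sterol when oxygen is lacking, differed in opposite directions. AUS1 lay at 0.53, 0.51 and 0.61 in BY4716 and at -0.61, -0.55 and -0.67 in RM11-1a. The difference of -1.16 ± 0.05 (SE) made AUS1 2.24-fold lower in RM11-1a (adjusted p = 7.88e-07), the largest fall of the 31 genes. PDR11 lay at 0.13, 0.15 and 0.13 in BY4716 and at 0.51, 0.46 and 0.45 in RM11-1a, higher by 0.34 ± 0.03 (SE, adjusted p = 9.88e-05). The same fit on the authors' deposited log2 ratios kept each direction with larger sizes, at -0.63 for UPC2, -0.91 for SUT1, -1.89 for AUS1 and 0.63 for PDR11, and a smaller offset of 10 gave -0.62 for SUT1 and 0.54 for PDR11.

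The acyltransferases that esterify sterol also split. ARE2, the isozyme that carries most of the activity in aerobic cells, lay at -0.12, -0.14 and -0.10 in BY4716 and at 0.77, 0.75 and 0.70 in RM11-1a. It was higher by 0.86 ± 0.03 (SE, 1.81-fold, adjusted p = 9.38e-07), and by 1.38 on the deposited log2 ratios. ARE1, the isozyme linked to growth without oxygen, lay at 0.34, 0.38 and 0.40 in BY4716 and at 0.29, 0.23 and 0.05 in RM11-1a, lower by a call close to the threshold (-0.18 ± 0.06 SE, adjusted p = 0.0368). The adjusted p of ARE1 ran from 0.0124 to 0.108 over 17 alternatives and missed the threshold in 6, including the omission of BY4716 array 7 (-0.20), array 9 (-0.18) or array 11 (-0.17). Without RM11-1a array 11 the difference of ARE1 was -0.11. With the replicate number as a block its adjusted p was 0.0644.

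Among the steryl ester hydrolases, YEH2 was lower in RM11-1a by a small amount, -0.14 ± 0.04 (SE, adjusted p = 0.0172), with BY4716 at 0.34, 0.34 and 0.40 and RM11-1a at 0.18, 0.20 and 0.28. Its adjusted p ran from 0.00856 to 0.0786 over 17 alternatives, missing the threshold in 3, and the difference was -0.12 without either BY4716 array 11 or RM11-1a array 7 and -0.23 on the deposited log2 ratios. YEH1 overlapped between the parents, and its difference of -0.03 had an interval from -0.17 to 0.11.

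**Figure D2:**
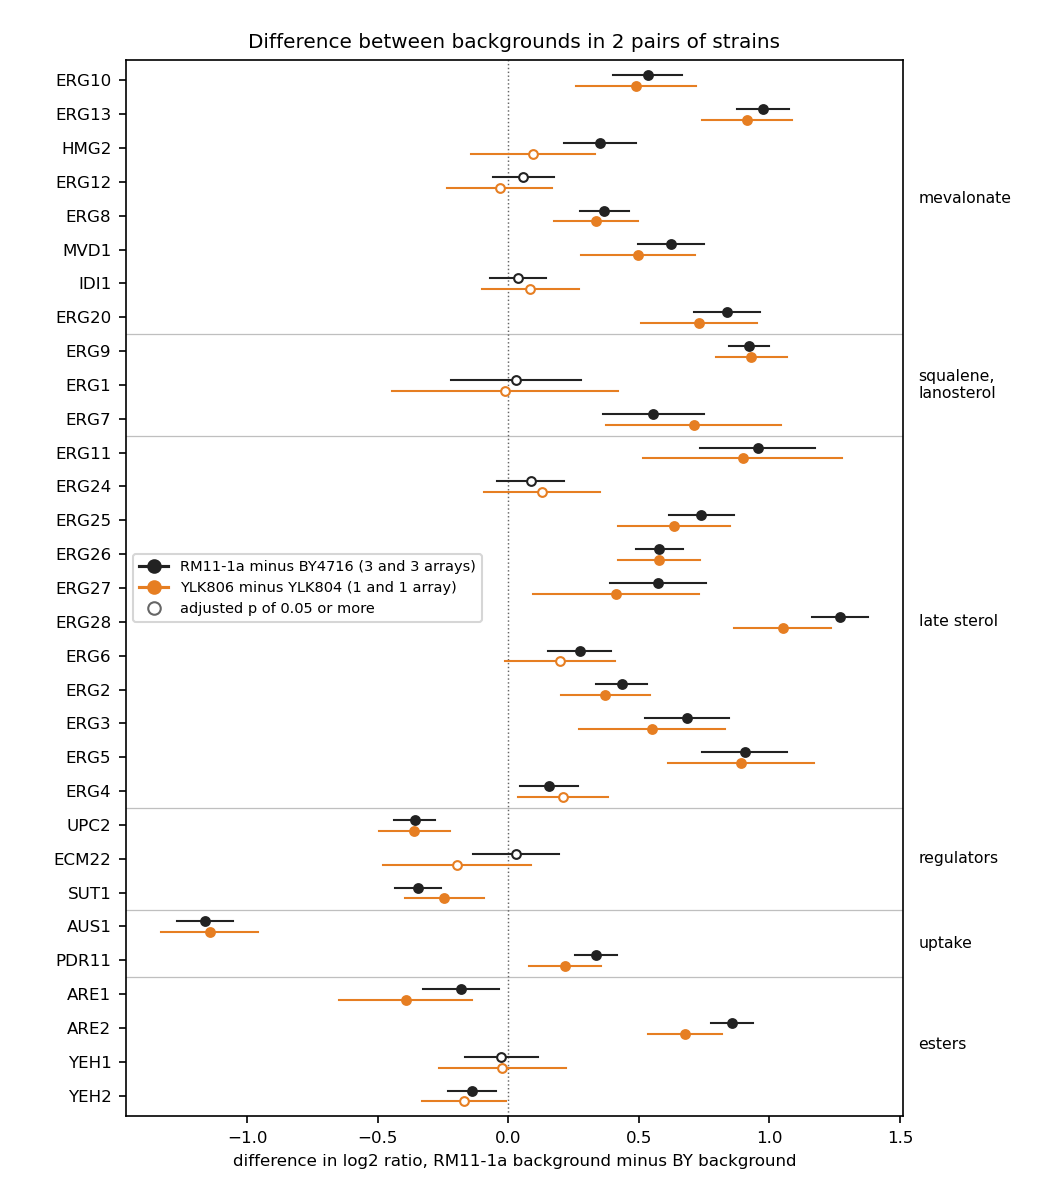
Difference in log2 ratio between the RM11-1a and the BY background (x axis) with its 95% interval, for the parents and for the SAL1 exchange pair; filled points passed an adjusted p of 0.05. The intervals of both pairs lie on the same side of 0 for most genes, from 1.27 for ERG28 to -1.16 for AUS1 in the parents.

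Neighbouring genes of sterol metabolism put these values in context. Of 16 genes for reductase partners, electron donors and control, 8 were higher and 2 lower in RM11-1a, where 33.1% and 29.9% of all genes were. CYB5, the cytochrome that donates electrons to several Erg enzymes, was higher by 1.11 ± 0.08 (SE, adjusted p = 1.72e-05). HAP1, a haem-responsive activator of genes for aerobic growth, was lower by 0.89 log2 units (-0.89 ± 0.06 SE, adjusted p = 1.08e-05), and NSG1, which stabilises Hmg2, differed by -0.44 ± 0.06 (SE, adjusted p = 0.000319). NSG2, of the same list, went the other way, higher by 0.84 ± 0.04 (SE, adjusted p = 2.03e-06). HAP1 kept its direction under every alternative, between -1.09 and -0.79.

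Of 16 tested genes for sterol transfer and export, 8 were higher and 4 lower, again beside 33.1% and 29.9% of all genes. NPC2 and NCR1, which carry sterol out of the vacuole lumen, were higher by 0.56 ± 0.06 (SE, adjusted p = 0.000193) and 0.48 ± 0.06 (SE, adjusted p = 0.000212). OSH6 and HES1, of the oxysterol-binding protein family, were lower, at -0.20 ± 0.04 (SE, adjusted p = 0.00429) and -0.19 ± 0.03 (SE, adjusted p = 0.00213). HES1 was at -0.84 on the deposited log2 ratios and -0.46 with an offset of 10, and with median centring it lost the call at -0.11; its adjusted p ran from 0.000285 to 0.169 over 16 alternatives. Of 9 genes of the branches that draw on the same isoprenoids, 3 were higher and 1 lower, beside the same shares of 33.1% and 29.9% over all genes, and none passed 1.5-fold. The largest were COX10, for haem A, at 0.32 ± 0.06 (SE, adjusted p = 0.00257), COQ1, for ubiquinone, at 0.31 ± 0.04 (SE, adjusted p = 0.00061), and MOD5, which modifies transfer RNA, at -0.26 ± 0.03 (SE, adjusted p = 0.000316). On the deposited log2 ratios COX10 was at 0.49 and MOD5 at -0.42.

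The SAL1 exchange strains repeat the contrast of backgrounds on 2 arrays that the parental comparison does not use. YLK806 has the RM11-1a background and YLK804 a BY background, each with the other's SAL1 allele, and the error of 1 array each is taken from the parental arrays. YLK806 was higher than YLK804 for 17 of the 31 genes and lower for 4, against 22.1% and 18.9% of all genes. Among the 22 synthesis genes 15 were called higher and none lower, with a median of 0.49. All 21 of these calls had the sign of the parental call. Called or not, the sign was the same in both pairs for 28 of the 31 genes and for 85.1% of 5863 genes. Over the 31 genes the 2 sets of differences had a Pearson r of 0.981 and a Spearman rho of 0.978, given as a description, against an r of 0.884 over 5863 genes. Both use the same probes and a pooled reference, for which the labels give an ethanol percentage on the exchange arrays only.

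Single values from that pair were close to the parental ones. AUS1 was at -0.71 in YLK806 and 0.43 in YLK804, a difference of -1.14 ± 0.08 (SE, adjusted p = 4.97e-05). ERG28 was at 0.58 and -0.47, a difference of 1.05 ± 0.08 (SE, adjusted p = 7.84e-05). ARE2 stood at 0.70 and 0.02, a difference of 0.68 ± 0.06 (SE, adjusted p = 0.000165). ERG9 was at 0.23 and -0.70, which is 0.93 ± 0.06 (SE, adjusted p = 2.91e-05), and ERG13 at 0.33 and -0.58, which is 0.91 ± 0.07 (SE, adjusted p = 0.000105). UPC2 was at -0.04 and 0.32, lower by the same -0.36 ± 0.06 (SE, adjusted p = 0.00249) as between the parents, although both arrays stood above their parent. The calls of ERG27, ERG8, MVD1 and SUT1 did not hold under every alternative: ERG8 and MVD1 missed the threshold with median centring, at 0.19 and 0.29, and SUT1 there and on the deposited log2 ratios, at -0.21 and -0.47. ERG27, at 0.41 ± 0.14 (SE), had an adjusted p from 0.0115 to 0.0768 over 14 alternatives.

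The difference between the parental and the exchange pair was itself tested, since a SAL1 effect common to both backgrounds would appear there. Limma called 0 of the 31 genes, against 0.478% of all genes higher and 0.375% lower. An unadjusted p under 0.05 was found for 2 of the 31, against 639 of 5863 genes, so their share is not above that of the array. The 2 were ARE2, at 0.18 ± 0.07 (SE, unadjusted p = 0.0353), and ERG28, at 0.22 ± 0.09 (SE, unadjusted p = 0.0478). Over the 31 genes the difference ran from -0.15 for ERG7 to 0.26 for HMG2. For HMG2 the interval reached from -0.02 to 0.53, wide enough to hold its whole parental difference. The interval was narrower for UPC2, from -0.16 to 0.16, and for ERG9, from -0.16 to 0.15.

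Each exchange array was also placed between the parental means for the 25 genes called between the parents. YLK804 lay nearer BY4716 for all 25, against 79.5% of the genes called between the parents. YLK806 lay nearer RM11-1a for 18 of 25, against 78.8%, and the 7 that lay nearer BY4716 were ERG10, HMG2, ERG20, ERG6, ERG2, ERG4 and UPC2. YAD350 lay nearer BY4716 for 20 of 25, against 56.6%, and the other 5 were HMG2, ERG11, UPC2, PDR11 and YEH2.

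YAD350 differed from BY4716 in both directions, in a share of the 31 genes near that of the array. In all 16 of the 31 were called, beside 2755 of 5850 genes. Of the 31 genes 7 were higher and 9 lower, against 26.6% and 20.5% of all genes. The strain is built in BY4742, grew with histidine and was scanned on a day of its own, so the MKT1 replacement, the remaining differences of BY4742 from BY4716, the medium and the day cannot be told apart. The largest change was in ERG6, the methyltransferase, at -0.75 in YAD350 against 0.08, 0.02 and 0.04 in BY4716, lower by 0.80 log2 units (-0.80 ± 0.07 SE, adjusted p = 0.000371). No other array reached so low a ratio for ERG6, and it was the only one of the 31 to pass 1.5-fold. ERG2 was at -0.34, a difference of -0.46 ± 0.06 (SE, adjusted p = 0.00111), and ERG20 at -0.65, a difference of -0.42 ± 0.08 (SE, adjusted p = 0.00397). IDI1, which was not called between the parents, was at -0.32, a difference of -0.40 ± 0.07 (SE, adjusted p = 0.00257). ERG24, ERG26, ERG10, UPC2 and AUS1 were lower by smaller amounts, between -0.37 and -0.21.

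Higher in YAD350 were 7 of the genes. ERG11 was at -0.19 against -0.71, -0.65 and -0.65 in BY4716, a difference of 0.48 ± 0.13 (SE, adjusted p = 0.0211). ERG28 was at -0.26, higher by 0.44 ± 0.07 (SE, adjusted p = 0.00177), and ERG25 at -0.42, higher by 0.35 ± 0.07 (SE, adjusted p = 0.00765). ERG3, PDR11, ERG13 and SUT1 were higher by 0.29, 0.25, 0.18 and 0.17. None of the 4 ester genes was called. UPC2 at -0.17 and PDR11 at 0.39 in YAD350 both lay on the RM11-1a side of BY4716. The other genes called in both comparisons went both ways. ERG11, ERG28, ERG25, ERG3, ERG13 and AUS1 also lay on that side, and ERG6, ERG2, ERG20, ERG10, ERG26 and SUT1 on the other. On the deposited log2 ratios the differences of UPC2, PDR11 and SUT1 were larger, at -0.47, 0.42 and 0.27.

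Several YAD350 calls depended on single arrays or on the scaling. The calls of ERG13, ERG3 and SUT1 were lost when any 1 BY4716 array was left out, with differences from 0.15 to 0.19, 0.28 to 0.31 and at 0.17 each time for SUT1. AUS1 lost its call without BY4716 array 7 (-0.22) or array 11 (-0.18), ERG10 without array 11 (-0.28) and ERG11 without array 7 (0.46). With median centring ERG3 was at 0.19 and ERG25 at 0.25, both without a call, and with scale normalization ERG13 was at 0.11. Subtracting the shift that both SAL1 exchange arrays shared left 7 of the 31 genes called. ERG10 was then at 0.034, ERG20 at -0.05, ERG2 at -0.09, ERG24 at -0.11, AUS1 at -0.10, IDI1 at -0.20, ERG26 at -0.16 and ERG13 at 0.05, and none of these was called, while UPC2 was at -0.49.

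**Figure D3:**
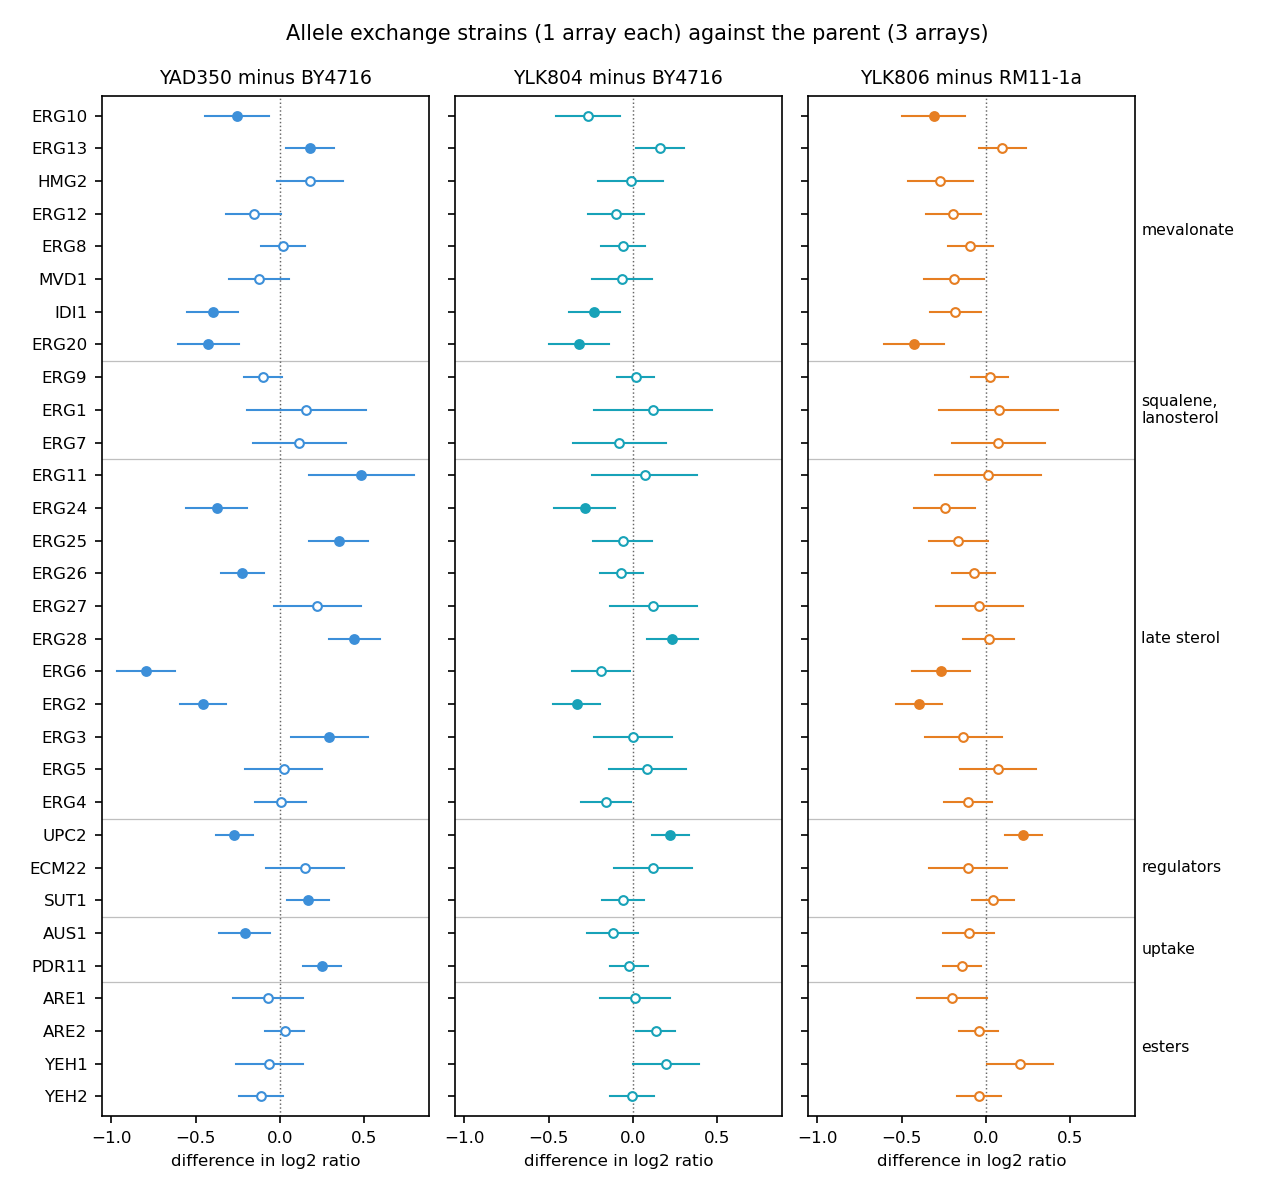
Difference in log2 ratio of each exchange strain from the parent (x axis) with its 95% interval, by gene; filled points passed an adjusted p of 0.05. ERG20 and ERG2 are filled and below 0 in all 3 panels, and ERG6 in YAD350 lies farthest from 0, at -0.80.

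Against their own parents the SAL1 exchange strains differed in few of the genes, as they did over the whole array. YLK804 had 6 of the 31 called beside 1240 of 5865 genes, and YLK806 had 5 beside 1320 of 5863. In YLK804 2 were higher and 4 lower than in BY4716, against 11% and 10.2% of all genes. ERG2 was at -0.22, a difference of -0.33 ± 0.06 (SE, adjusted p = 0.0103), and ERG20 at -0.55, a difference of -0.32 ± 0.08 (SE, adjusted p = 0.0278). ERG24 and IDI1 were lower by -0.29 and -0.23, and ERG28 and UPC2 higher by 0.23 and 0.22. All but ERG2 lost the call without BY4716 array 7 or array 11: ERG20 was at -0.28 and -0.34, ERG24 at -0.27 and -0.28, IDI1 at -0.22 and -0.21, ERG28 at 0.22 and 0.20, and UPC2 at 0.23 in each. Without array 9 ERG24, at -0.31, and IDI1, at -0.24, also lost it. With median centring ERG20 and ERG2 alone kept the call, ERG2 at -0.52, and ERG28 at 0.39 on the deposited log2 ratios. URA3 was at 1.35 to 1.40 in BY4716 and at -3.47 in YLK804, so the strains differ in more than SAL1, and the allele cannot be told apart from the rest.

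In YLK806 1 gene was higher and 4 lower than in RM11-1a, against 10.8% and 11.8% of all genes. ERG20 was at 0.18 against 0.55, 0.59 and 0.69, a difference of -0.43 ± 0.08 (SE, adjusted p = 0.0116). ERG2 was at 0.15 against 0.61, 0.53 and 0.51, a difference of -0.40 ± 0.06 (SE, adjusted p = 0.00689). ERG10, at -0.31 ± 0.08 (SE), had an adjusted p of 0.0333 and lost the call without BY4716 array 11 (-0.31), RM11-1a array 9 (-0.28) or RM11-1a array 11 (-0.32). ERG6, at -0.27 ± 0.07 (SE), had an adjusted p of 0.0393 and lost it in 5 of 6 such omissions, at -0.27 without any 1 BY4716 array, -0.24 without RM11-1a array 7 and -0.24 without RM11-1a array 11. UPC2 was at -0.04 against -0.27, -0.24 and -0.28, higher by 0.22 ± 0.05 (SE, adjusted p = 0.0186), and by 0.35 on the deposited log2 ratios. With median centring ERG10 (-0.31), ERG6 (-0.25) and UPC2 (0.22) lost the call.

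The 2 SAL1 strains thus stood off from their parents on the same side for several genes although their alleles are exchanged in opposite directions. The ratios of ERG20 and ERG2 were called lower in all 3 exchange strains, as were 169 of 5848 genes. For ERG20 the strain channel was nevertheless higher in all 3, and the reference channel rose more, with values given below. Averaged over both SAL1 strains against both parents, 3 of the 31 genes were higher and 6 lower, against 18.7% and 20% of all genes. The share among the 31 genes was thus not above that of the array. The lower genes were ERG20 (-0.37 ± 0.05 SE, adjusted p = 0.00237), ERG2 (-0.36 ± 0.04 SE, adjusted p = 0.00108), ERG10, ERG24, ERG6 and IDI1. UPC2 was the clearest of the higher genes (0.22 ± 0.03 SE, adjusted p = 0.00269), with YEH1 at 0.20 and ERG13 at 0.13. The calls of YEH1 and ERG13 were lost when any 1 BY4716 array was left out, at 0.20 and from 0.12 to 0.14. YLK804 and YLK806 were scanned on the same day and read with the same software version, which differs from that of the other arrays, so strain, day and software cannot be told apart here.

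The channels behind the ratios differed between the comparisons. Between the parents the strain channel moved more than the reference channel for 24 of the 25 called genes, ERG4 being the exception, and the reference channel changed by between -0.12 and 0.11 log2 units across the 31 genes. In YLK806 minus YLK804 the strain channel moved more for 19 of 21. In ERG8 and MVD1, both called higher there, both channels were lower, the strain channel by -0.73 and -1.05 and the reference channel by -1.07 and -1.55. Against the parents, however, the reference channel moved more for 8 of 16 called genes in YAD350, 4 of 6 in YLK804 and 4 of 5 in YLK806. The strain channel had the sign of the call for 15 of 16 in YAD350, 3 of 6 in YLK804 and 2 of 5 in YLK806. The same counts over all genes were not made. The labels do not say whether 1 reference pool served all arrays. For ERG20, called lower in all 3 exchange strains, both channels were higher in each. In YAD350 the strain channel was higher by 0.19 and the reference channel by 0.61. In YLK804 these were 0.31 and 0.63, and in YLK806 0.10 and 0.53. For ERG6 in YAD350 the strain channel changed by -0.27 and the reference channel by 0.53. ERG2 was lower in both channels in both SAL1 strains, by -0.97 and -0.64 in YLK804 and by -0.91 and -0.51 in YLK806. The part of the reference channel in these calls was not tested.

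**Figure D4:**
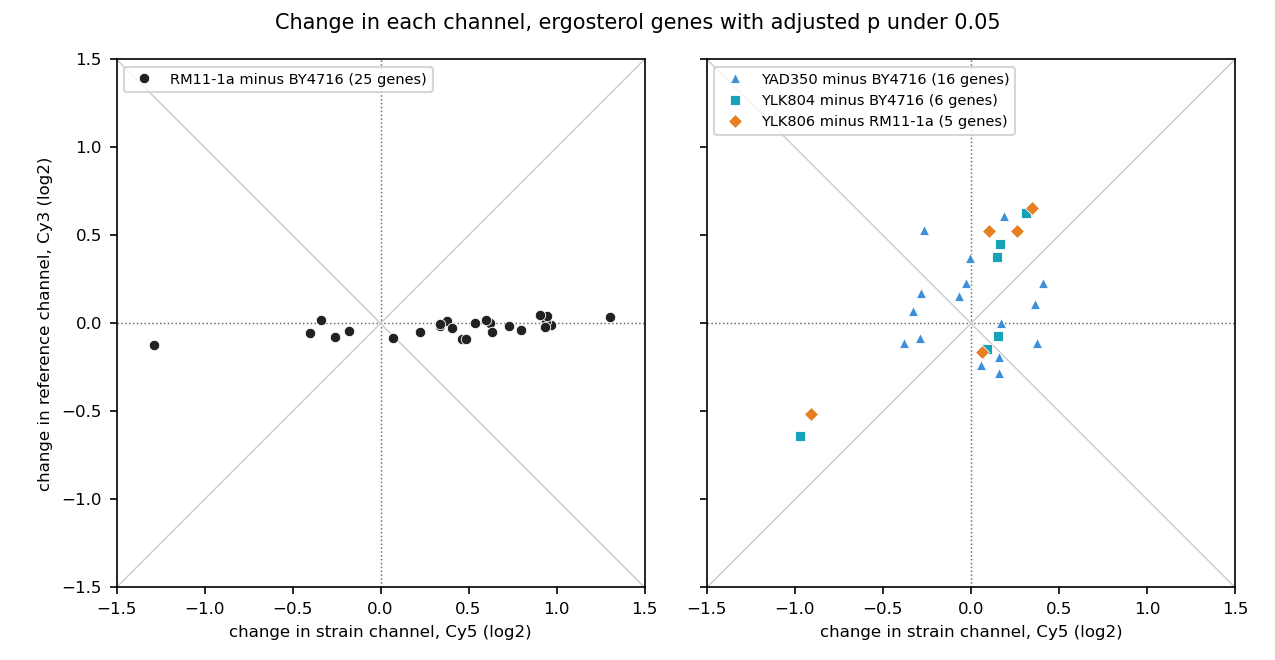
Change of the strain channel (x axis, log2) and of the reference channel (y axis, log2) for the genes called in each comparison; grey diagonals mark equal size in both channels. In the parental panel 24 of 25 points lie closer to the horizontal line than to the vertical one, and in the exchange panel 8 of 16 YAD350, 4 of 6 YLK804 and 4 of 5 YLK806 points lie beyond the diagonals.

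The 3 arrays of RM11-1a varied more than those of BY4716 for these genes. The median SD over the 31 genes was 0.068 in RM11-1a and 0.039 in BY4716, and over all genes 0.060 and 0.041. The SD was larger in RM11-1a for 24 of the 31 genes and for 67.3% of all genes. BY4716 arrays 7 and 11 shared a slide and a scan day, while no 2 RM11-1a arrays shared either. Strain, slide and day therefore cannot be told apart in this spread. ERG1 (SD 0.237), ERG11 (SD 0.207) and ERG7 (SD 0.174), whose enzymes act one after the other, were the most variable there, and each was lowest on array 7 and highest on array 9. Array 11 was the lowest of the RM11-1a arrays for 22 of the 31 genes and for 39.6% of all genes. On the scan day that held BY4716 array 9 and RM11-1a array 9, ERG28 differed by 1.22, ERG11 by 1.15 and AUS1 by -1.06. All 25 genes called between the parents kept their direction on that day. This could not have come out otherwise, since they are the genes whose parental arrays did not overlap. A fit with scan day as a fixed block rests on these 2 arrays alone for its differences, and on BY4716 arrays 7 and 11 for its error. For 22 of the genes with 2 spots per array, the spots differed by a median of 0.042 log2 units.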

How the data were processed

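RNA of 5 strains was measured on 9 Agilent arrays with 2 channels, 1 array per sample, grouped by the labels. The deposited scanner files hold spot intensity in each channel with its local background, read with Feature Extraction 8.5.1.1 on 7 arrays and 9.1.3.1 on YLK804 and YLK806, per the file headers. Each file also has a log10 ratio (Cy5 to Cy3), as deposited, and the authors' log2 ratios in the series table equalled it within 0.0005 on every array after change of base. Column medians of that table lay between 0 and 0.008, so its scale and direction are known and no further centring was seen. The genome build is not given in the sources used here, so no coordinates are printed, and no sequences are shown.

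Mean signals were corrected with normexp at an offset of 50 and normalized by loess within each array in limma 3.58.1 under R 4.3.3. Control spots had weight 0 and outlier spots, 5 to 140 per array, were dropped. Saturated spots were kept, and spots of a gene were averaged. Genes were tested if, on 3 or more of the 9 arrays, either channel was well above background. One lmFit and eBayes model of 5 groups was fitted over 5865 genes with Benjamini-Hochberg adjustment over all of them and 4 residual degrees of freedom, all from the parental arrays. BY4716 arrays 7 and 11 shared a slide and a scan day. No exchange array was scanned on a day of a parental array, so the error may understate the spread between days. Channel changes are after loess and Aquantile. The steps were also run on simulated data with the same noise on every array and no effect of scan day, software or reference pool. That run cannot show whether the exchange arrays share the error of the parental arrays.

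The genes, the lists of neighbouring genes and the rules were chosen with earlier results of these data known. All 31 genes are named. From each neighbouring list the 2 largest called rises and the 2 largest called falls between the parents are named, with HMG1, NSG2, SUT2 and the markers LYS2 and URA3. The replicate numbers 7, 9 and 11 do not pair the parents: deviations of same-numbered arrays correlated at -0.21, 0.14 and -0.18. Alternatives covered correction, normalization, filters, intensity trend, scan day, replicate number, the deposited log2 ratios and each parental array left out. A block for slide, added after seeing the data, could not be estimated from 8 slides.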

Additional observations from a re-analysis of the deposited data

Results flagged for a closer look

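The difference between strains with the RM11-1a and the BY allele of SAL1 had opposite signs in the BY and RM11-1a backgrounds for 9 of the 31 genes, and the backgrounds differed by limma's test over 5863 genes. The same test called 18.7% of all genes higher and 20% lower, so the share among the 31 genes is not above that of the array. In each background the value is the strain with the RM11-1a allele minus the strain with the BY allele, and the BY value minus the RM11-1a value was -0.75 for ERG20, -0.73 for ERG2, -0.57 for ERG10, -0.53 for ERG24, -0.46 for ERG6 and -0.41 for IDI1 on the log2 scale. It was 0.45 for UPC2, 0.40 for YEH1 and 0.26 for ERG13. It equals the sum of both exchange strains' differences from their own parents. YLK804 and YLK806 shared a scan day and a software version that no parental array had, and for 7 of the 9 genes (ERG10, IDI1, ERG20, ERG24, ERG6, UPC2 and YEH1) the reference channel moved more than the strain channel. The strain channel had the sign of the value for 4 of the 9. Whether the day, the software or the reference made these values was not tested. Not every single value passed its own test, ERG13 for example at 0.16 in the BY and -0.10 in the RM11-1a background.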

How the results depend on the processing

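Of the 25 ergosterol genes called between the parents, 22 kept their call and direction under all alternatives run; ARE1, ERG4 and YEH2 did not, as given with their values above. The number called was 24 on the deposited log2 ratios, with an offset of 10, with median centring, with scale normalization and with the strict filter, under which ERG4 was not tested, and 25 with no filter, with an intensity trend, with scan day as a random block, with scan day as a fixed block and with the parental arrays alone. With the replicate number as a block it was 24, and only the call of ARE1 was lost. Leaving out 1 parental array gave 23 to 27 called, and ERG12 (0.11) and ERG24 (0.14) were called higher without RM11-1a array 11. With scan day as a fixed block, whose differences rest on 1 array of each parent, ERG1 (0.25) and ERG24 (0.16) passed the threshold and ARE1 and YEH2 did not. The number past 1.5-fold was 11 to 15. In YLK806 minus YLK804 the count of 21 was 17 with median centring, 19 on the deposited log2 ratios, 23 with scan day as a random block and 20 to 21 with an array left out, and the test between the 2 pairs called 0 of the 31 genes in every alternative. For YAD350 the count of 16 fell to 7 with the shared shift subtracted, where ERG10 changed sign at 0.034, and was 11 to 17 with an array left out. For YLK804 the count of 6 was 3 on the deposited log2 ratios, 2 with median centring and 1 to 7 with an array left out; for YLK806 against RM11-1a the count of 5 was 8 with scale normalization and 3 to 8 with an array left out. The lowest counts for YLK804, 1 each, came without BY4716 array 7 or array 11. Over all genes, median centring called 629 in YLK804 where 1240 were called and 800 in YLK806 where 1320 were. Without BY4716 array 7 or array 11 these were 590 or 623 in YLK804 and 867 or 856 in YLK806. With the shift subtracted, a separate test called 1803 genes in YAD350 where 2755 were called, and the overlap of these was not counted. The 50 in the test between pairs became 81 with scale normalization and 28 to 29 under the strict filter and without BY4716 array 9 or array 7. The strict filter asked for signal well above background in both channels on all arrays. The causes were not tested. One array per exchange strain limits these counts, since its error is assumed to equal that of the parental arrays.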
